A study of Mus musculus with 3 samples.

Results

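The brush border hydrolases are enzymes anchored in the apical membrane of intestinal enterocytes, and 9 of their genes were followed here through all cell classes of a mouse duodenal single-cell RNA data set: Lct, Sis, Treh, Mgam, Anpep, Dpp4, Alpi, Akp3 and Enpep. They were chosen by gene symbol, and all 9 were found among the 32285 genes of the deposited count matrices. The mice were C57B6/J, male per the series title. One group had received alpha-synuclein preformed fibrils (PFF), aggregates made from recombinant mouse protein, by injection into the muscle wall of the duodenum, and the other had received saline. Cells were taken at day 30, freed with Accumax, enriched for CD45 by sorting in one portion and for CD11b on beads in the other, and loaded together (10x 3' v3 chemistry). Epithelial cells carry neither protein as a rule, so the enterocytes below are those that came through an enrichment for immune cells, not a sample of the whole mucosa.

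The apical membrane of an enterocyte is folded into microvilli, and the hydrolases on it carry out the last step of digestion, beside the transporters that take up the products. Lct (lactase-phlorizin hydrolase), Sis (sucrase-isomaltase), Treh (trehalase) and Mgam (maltase-glucoamylase) cleave sugars. Anpep (aminopeptidase N, CD13), Enpep (aminopeptidase A) and Dpp4 (dipeptidyl peptidase 4, CD26) remove amino acids or dipeptides from the amino end of peptides, and Alpi and Akp3 are intestinal alkaline phosphatases, which remove phosphate groups. Enterocytes arise in the crypts and move up the villus, where their gene expression changes with position. Dpp4 and Anpep are also surface proteins of some immune cells.

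The labels give 1 PFF library (PFF 1, batch 1) and 2 saline libraries (saline 1, batch 1; saline 2, batch 2), and they do not say how many mice a library holds. Each saline file joined 4 wells, and 3 of these, with 1509, 3648 and 8732 cells, held the same barcodes with identical counts in every cell in both files. These wells were counted once and are given as the common saline wells, with no claim to be a replicate. Comparisons within libraries took them, pooled, as a further library, and the library counts given with those fits include them. PFF 1 held 15352 cells with 142955760 UMIs. The unshared wells held 5631 cells with 20788920 UMIs (saline 1) and 5734 cells with 64940311 UMIs (saline 2), with 9 barcodes in common and no cell with identical counts, and the common saline wells held 98493549 UMIs. Of the barcode letters of the 4 wells in the saline 1 file, 3, 20, 42 and 19 also occurred in the PFF file. The unshared well of saline 2 was not compared with it. A UMI marks 1 captured RNA molecule. Levels are given as CPM (counts per 1000000), the UMIs of a gene relative to all UMIs outside the mitochondrial genes of the class, and are compared across cells and libraries, not between genes. Exact Poisson and binomial intervals (95%) cover counting error only.

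Enterocytes were defined by marker panels that hold none of the 9 genes. At most 15% mitochondrial UMIs and an enterocyte panel of 8 genes (among them Fabp1, Fabp2, Apoa1, Apoa4 and Rbp2) of at least 100 per 10000 UMIs left 336 enterocytes in PFF 1, 38 in saline 1, 388 in saline 2 and 868 in the common saline wells. All 8 panel genes were detected in each. Their depth was unequal: the median was 2121 UMIs in PFF 1, 12992 in saline 1, 2558 in saline 2 and 13429 in the common saline wells.

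The regions before the start sites of 4 members are shown because their levels along the villus differed most in direction (Sis against both phosphatases) or least (Lct). Each is the 250 bases before the RefSeq start of the gene in GRCm38.p6, read 5′ to 3′ on the strand of the gene: chr3:72967864-72968113, minus strand, for Sis, and chr1:128328319-128328568, minus strand, for Lct. Capitals mark the letters TTTAT (a core of CDX sites), GTTAAT (part of HNF1 sites), CAAAGTC (part of HNF4 sites) or GATAA (GATA factors), searched on both strands, with overlaps allowed and with the letters chosen while these promoters were in view.
Sis: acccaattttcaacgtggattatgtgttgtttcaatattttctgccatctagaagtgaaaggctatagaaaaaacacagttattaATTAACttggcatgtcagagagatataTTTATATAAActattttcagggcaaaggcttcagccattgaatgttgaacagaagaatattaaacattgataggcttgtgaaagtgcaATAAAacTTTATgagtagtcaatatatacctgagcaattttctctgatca
Lct: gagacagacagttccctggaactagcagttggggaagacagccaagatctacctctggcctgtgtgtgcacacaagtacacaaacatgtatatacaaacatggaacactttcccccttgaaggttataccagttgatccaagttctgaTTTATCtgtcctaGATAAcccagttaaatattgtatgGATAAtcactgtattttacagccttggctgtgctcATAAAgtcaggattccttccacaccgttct
The CDX letters occurred 4 times before Sis and 2 times before Lct, and those of GATA 3 times before Lct and 0 times before Sis. Over 32851 mouse promoters of this length, 37.3% held the CDX letters, 22.6% those of GATA, 6.43% those of HNF1 and 3.84% those of HNF4. The HNF4 letters were present before Treh, Alpi and Akp3. A match describes the sequence and is no evidence of binding.

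Alpi and Akp3 lie 23366 bases apart on chromosome 1 and point in opposite directions, and their upstream regions were compared because both genes were higher in the upper than in the lower part of the villus score in the fit given below. The regions are chr1:87101607-87101856, minus strand, for Alpi, and chr1:87124704-87124953, plus strand, for Akp3. Capitals mark here the runs of at least 12 bases that occur in both.
Alpi: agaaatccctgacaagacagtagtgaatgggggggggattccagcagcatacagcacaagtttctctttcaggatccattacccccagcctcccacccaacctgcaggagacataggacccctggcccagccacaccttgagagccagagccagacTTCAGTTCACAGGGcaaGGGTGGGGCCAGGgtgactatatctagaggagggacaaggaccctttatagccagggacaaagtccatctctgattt
Akp3: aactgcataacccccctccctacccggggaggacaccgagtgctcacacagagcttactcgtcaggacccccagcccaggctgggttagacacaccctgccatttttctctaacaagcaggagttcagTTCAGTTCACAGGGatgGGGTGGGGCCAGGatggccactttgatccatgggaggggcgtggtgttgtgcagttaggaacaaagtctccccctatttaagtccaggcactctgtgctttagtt
They shared 27 bases in such runs, the longest of 14. In GENCODE M21 on GRCm38 the genes span chr1:87098002-87101606 (Alpi) and chr1:87124973-87127912 (Akp3). None of the 441 windows of 60 bases in the last 500 bases of either transcript, where a 3' library reads, occurred in a transcript of another gene, and the same held for the other 7 members. Exons of Treh overlap Phldb1, and those of Dpp4 overlap Gm13561, both on the other strand. Whether the counting used strand is not given in the sources used here, so reads of these pairs may not be separable.

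**Figure D1:**
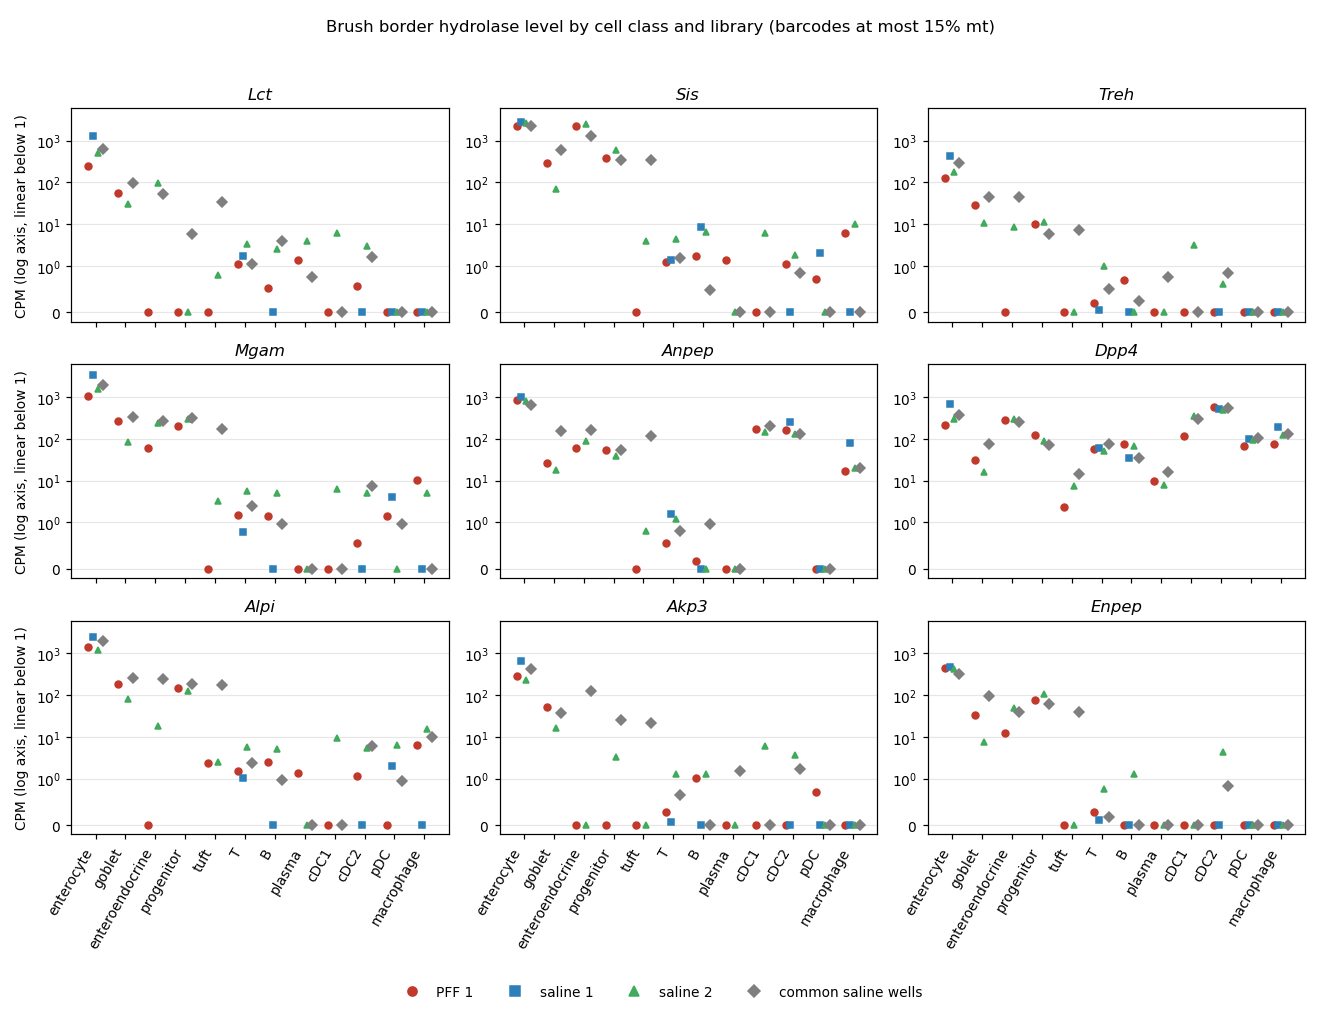
CPM of each hydrolase gene (vertical axis, logarithmic above 1) in 12 cell classes (horizontal axis), with 1 point per library where the class had at least 8 cells. All 9 genes were high in enterocytes, Dpp4 was as high in cDC2, Anpep was present in cDC1 and cDC2, and the other 7 lay at or below 15.02 CPM in immune classes.

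All 9 hydrolases were expressed in enterocytes of every library, and all but Dpp4 and Anpep lay at or below 15.02 CPM in each immune class, with the common saline wells pooled. Taken alone, common saline well 2 had 27.3 CPM of Mgam, 26.6 of Alpi and 15.3 of Sis in its 776 T cells, and 41.5 CPM of Alpi, from 3 UMIs, in its 20 B cells. Sis stood at 2229 CPM in PFF 1, 2829 in saline 1, 2604 in saline 2 and 2264 in the common saline wells. Alpi stood at 1435 CPM in PFF 1, 2451 in saline 1, 1173 in saline 2 and 2007 in the common saline wells. Thinned to 5000 UMIs per cell, enterocytes had a median of 5 of the 9 genes detected in PFF 1 (88 cells), 7 in saline 1 (30 cells), 6 in saline 2 (147 cells) and 7 in the common saline wells (745 cells). At least 1 of the 9 was detected in 99.9% to 100% of these cells.

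Among the other epithelial classes, goblet cells had all 9 genes at lower levels than enterocytes, with log2 differences between -3.72 (Anpep) and -2.41 (Treh). These fits were added after the levels had been seen. They paired the classes within PFF 1, saline 2 and the common saline wells, and edgeR's quasi-likelihood test with Benjamini-Hochberg adjustment called 22.7% of 10536 genes lower in goblet cells. Progenitors, marked by Olfm4, Lgr5 and proliferation genes, also had all 9 lower (27.7% of 10914 genes were lower), with Dpp4 at -2.03 ± 0.27 and Sis at -2.92 ± 0.29 (SE, 3 libraries). Lct had 0 UMIs in progenitors of PFF 1 and saline 2 and 2 UMIs in those of the common saline wells. Akp3 had 0, 3 and 9 UMIs in the same 3 libraries. Tuft cells had all 9 lower as well (24.7% of 11173 genes were lower). In PFF 1 the 15 tuft cells held 1 UMI each of Dpp4 and Alpi and none of the other 7, whereas the 26 tuft cells of the common saline wells held 144 UMIs of Sis and 73 of Alpi.

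Enteroendocrine cells, the hormone cells of the epithelium, had 7 of the 9 genes lower than enterocytes, and the differences of Sis and Dpp4 were not called. For Sis the 8 cells of PFF 1 gave 2236 CPM, the 20 cells of saline 2 gave 2444 and the 13 cells of the common saline wells gave 1292, against 2229, 2604 and 2264 CPM in enterocytes of the same libraries. The log2 difference from enterocytes was -0.75 ± 0.36 for Sis (edgeR adjusted p = 0.108) and -0.50 ± 0.28 for Dpp4 (adjusted p = 0.169), so neither was called. Dpp4 in these cells had 279.8 (PFF 1), 294 (saline 2) and 249 CPM (common saline wells). Alpi was counted 0 times in PFF 1, 17 times in saline 2 and 50 times in the common saline wells, with a difference of -5.69 ± 0.82 (adjusted p = 0.000294). Of all 11672 genes tested, 25.2% were lower in enteroendocrine cells.

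Other genes of absorption were counted in the same fits. Of 13 tested other brush border enzymes, 12 were lower in goblet cells, 11 in enteroendocrine cells (1 was higher), 13 in progenitors and 13 in tuft cells. Of 8 sugar transport genes, 8 were lower in goblet cells, 6 in enteroendocrine cells, 8 in progenitors and 8 in tuft cells. That list also holds Khk, which encodes a sugar kinase and no transporter. Peptide and amino acid transporters were lower for 7, 8, 9 and 10 of 10 genes in goblet, enteroendocrine, progenitor and tuft cells, with 1 higher in progenitors. Genes of microvillus structure were lower for 9, 10, 13 and 9 of 14, with 1 higher in progenitors and 2 in tuft cells. Regulators of enterocyte genes were lower for 4, 5, 6 and 10 of 14 and higher for 2, 0, 2 and 1, so that in goblet cells their share lay near the 22.7% of all genes that were lower. In goblet cells the median log2 difference of the other enzymes was -2.96, against -0.01 over all genes tested. Among named genes, Tmprss15, which encodes the enterokinase that activates trypsinogen, fell by 3.29 in goblet cells, and Slc2a5, the fructose transporter GLUT5, fell by 3.24.

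Outside the epithelium, Dpp4 was highest in cDC2, a class of conventional dendritic cells. It stood at 559 CPM in PFF 1 (68 cells), 523 in saline 1 (17 cells), 491 in saline 2 (60 cells) and 540.4 in the common saline wells (95 cells). The common saline wells taken singly gave 508 CPM (22 cells), 373 (27 cells) and 625 (46 cells). The enterocyte values were 211, 659, 298 and 365 CPM, so cDC2 lay above enterocytes in PFF 1, saline 2 and the common saline wells and below them in saline 1. The order below cDC2 in PFF 1 was cDC1 at 115 CPM, macrophages at 75.8, B cells at 73.9, plasmacytoid dendritic cells at 67.2, T cells at 58.1 and plasma cells at 9.81. The intervals of macrophages, B cells and plasmacytoid dendritic cells overlapped in that library. In the common saline wells cDC1 stood at 298 CPM, macrophages at 130.3 and B cells at 34.97, so the lower part of this order was not the same in each library.

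Dpp4 was higher in cDC2 than in T cells by 3.34 ± 0.14 on the log2 scale (SE, 4 libraries; edgeR adjusted p = 4.08e-13; 26.0% of 13969 genes were higher). With every cell thinned to 1000 UMIs, a Dpp4 UMI was found in 32.4% of cDC2 in PFF 1, 29.4% in saline 1, 50.0% in saline 2 and 34.7% in the common saline wells. The T cell shares were 5.60%, 5.46%, 5.10% and 6.99%. Unthinned, 27.1% of 10233 T cells in PFF 1, 14.6% of 4973 in saline 1, 27.3% of 3237 in saline 2 and 25.7% of 8674 in the common saline wells had one.

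Anpep was the second hydrolase of dendritic cells. In cDC2 it stood at 159 CPM in PFF 1, 246 in saline 1, 127 in saline 2 and 128 in the common saline wells, and in T cells at 0.552, 1.54, 1.20 and 0.810 CPM (log2 7.64 ± 0.22, edgeR adjusted p = 2.41e-15). In cDC1 the values were 167 CPM in PFF 1, 143 in saline 2 and 199 in the common saline wells. Macrophages had 16.8 to 77.8 CPM from 4 to 8 UMIs per library. Plasmacytoid dendritic cells had no Anpep UMI in any of the 4 libraries.

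T cells differed in Dpp4 by the receptor genes they expressed. T cells with a UMI of Trdc, a gamma-delta receptor gene, had 68.5 CPM in PFF 1, 74.2 in saline 1, 59.2 in saline 2 and 72.4 in the common saline wells. T cells with Cd8a and no Cd8b1, Cd4 or Trdc had 23.95, 29.7, 25.95 and 53.4 CPM in the same libraries. All 4 libraries had the higher value in the Trdc group (log2 1.06 ± 0.12, edgeR adjusted p = 1.41e-05; 4.32% of 14690 genes were higher). T cells with Cd8b1 had 102 CPM in PFF 1, 118 in saline 1, 32.6 in saline 2 and 102 in the common saline wells, also above the Cd8a group in all 4. In saline 2 this value came from 21 UMIs in 51 cells. Its interval (20.2 to 49.9 CPM) covered that of the Cd8a group (22.5 to 29.7 CPM). The fitted difference of the Cd8b1 from the Cd8a group was 1.40 ± 0.26 (edgeR adjusted p = 0.0119, with 3.49% of 12475 genes higher). The call was lost without PFF 1 (1.08, adjusted p = 0.0693) and without saline 1 (1.28, adjusted p = 0.137). T cells with Cd4 numbered 61 in PFF 1, 8 in saline 2 and 86 in the common saline wells, with 98.5, 60.8 and 111 CPM.

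**Figure D2:**
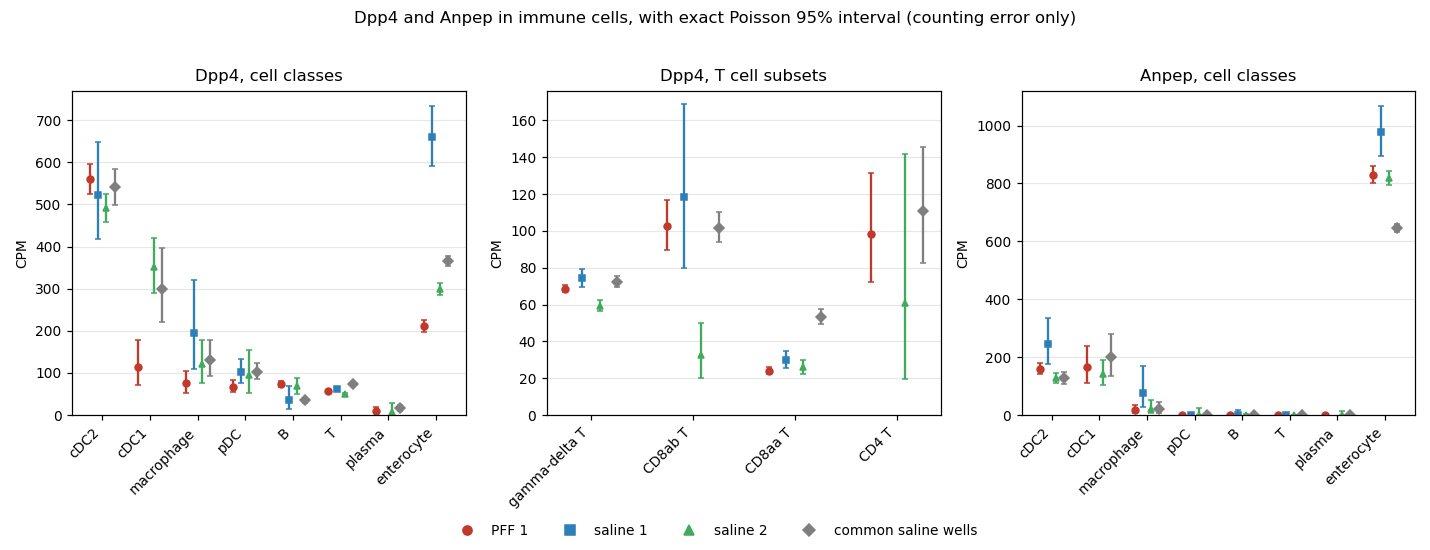
CPM of Dpp4 in cell classes (left) and T cell subsets (middle) and of Anpep in cell classes (right), with 1 point per library and exact Poisson 95% intervals. Dpp4 in cDC2 lay between 491 and 559 CPM, and Anpep was near 0 in T cells in every library.

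The other members were read in T cells beside the enterocyte panel. Whether their UMIs there came from free RNA, from doublets or from the T cells themselves was not tested. In T cells the 8 genes other than Dpp4 had a median of 0.102% of their enterocyte level in PFF 1, 0.0332% in saline 1, 0.412% in saline 2 and 0.127% in the common saline wells. The enterocyte panel gave medians of 0.192%, 0.106%, 0.429% and 0.110% in the same libraries. The common saline wells were not alike: taken singly, the 8 genes had medians of 0.370%, 1.33% and 0.0215%, and the panel 0.310%, 1.20% and 0.0322%. Dpp4 in T cells was at 27.5%, 9.32%, 17.1% and 19.9% of its enterocyte level, above the highest value of the panel in each library. In the common saline wells taken singly Dpp4 was at 15.2%, 16.2% and 18.6%, where the highest panel value was 1.66%. Lct also passed the highest panel value in PFF 1 (0.448% against 0.355%), saline 2 (0.674%, 0.557%) and the common saline wells (0.187%, 0.136%). Treh passed it in saline 2 (0.578%) and the common saline wells (0.176%), and Akp3 in the latter (0.150%). None of the 8 did in saline 1. In single wells that of the well was passed by Treh in wells 1 (0.583%) and 2 (2.55%), Akp3 in well 2 (2.16%) and Anpep in well 3 (0.480%). The Anpep UMIs of T cells in well 3 numbered 27, in 13 cells, and the 12 enterocytes of that well held 25. After thinning, 0.0391% to 0.124% of T cells had an Anpep UMI in the 4 libraries, and 0.644% in common saline well 2 alone.

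Enterocytes were ordered by a villus landmark score, the balance of 8 genes of the upper villus (Ada, Apoa4, Nt5e, Slc28a2, Creb3l3, Klf4, Egfr, Cdkn1a) and 8 of the lower villus (Reg3b, Reg3g, Gsta1, Gstm3, Lypd8, Nlrp6, Il18, Ccl25). The hydrolases separated along it. Sis, Anpep and Enpep were lower in the upper part, with Mgam and Dpp4 to a smaller extent, and Akp3, Alpi and Treh were higher in the upper part. PFF 1, saline 2 and the common saline wells had enough cells (at least 20 per part) to be fitted. The upper parts held 132, 155 and 289 cells and the lower parts 109, 129 and 289.

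In the upper part Sis had 190.5 CPM (PFF 1), 133 CPM (saline 2) and 84.9 CPM (common saline wells), against 2704, 3255 and 3659 CPM in the lower part. The groups did not overlap, and the log2 difference was -4.04 ± 0.36 (SE, 3 libraries; edgeR adjusted p = 1.92e-27). Of the 10100 genes tested, 27.2% were lower and 24.2% higher in the upper part, and 8 of the 9 members were called. Anpep stood in the upper part at 118, 47.9 and 45.8 CPM, against 1005, 1028 and 1089 CPM in the lower part (-3.47 ± 0.32, adjusted p = 3.36e-25). Enpep, the aminopeptidase that removes acidic residues, had 68.0, 63.8 and 49.1 CPM in the upper part, against 534, 504 and 479 CPM in the lower part (-2.51 ± 0.30, adjusted p = 1.18e-15). These 3 genes thus had the same direction in each library.

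Mgam was lower in the upper part by 1.05 ± 0.31 on the log2 scale (edgeR adjusted p = 0.00185) and Dpp4 by 0.80 ± 0.28 (adjusted p = 0.0103). In the upper part Akp3 had 762 CPM (PFF 1), 617 CPM (saline 2) and 399 CPM (common saline wells), against 98.1, 127 and 219 CPM in the lower part. It was higher by 2.65 ± 0.29 (adjusted p = 2.57e-18). Alpi was higher by 1.61 ± 0.33 (adjusted p = 4.56e-06), with 2626, 2181 and 2196 CPM in the upper part and 1098, 951 and 1567 CPM in the lower part. Treh was higher by 1.26 ± 0.27 in the fit (adjusted p = 1.69e-05), with 227 against 89.9 CPM in PFF 1 and 261 against 151 CPM in saline 2. In the common saline wells its upper part had 229 CPM and its lower part 243 CPM. Lct was not called (0.14 ± 0.29, adjusted p = 0.709). In the upper part it had 435 CPM in PFF 1, against 213 CPM in the lower part. Saline 2 (314 against 525 CPM) and the common saline wells (211 against 648 CPM) went the other way. The fit rescales the libraries (TMM), and the CPM are not rescaled. For every gene in this paragraph the fitted value lay above the mean log2 ratio of upper to lower CPM. The calls refer to the scaled values. The p-values of this fit rest on a variance in effect pooled over genes, and hardly on a gene's own spread between libraries. That of Sis was 4.90e-29 unadjusted (edgeR), against 1.84e-08 with only barcodes of at least 5000 UMIs.

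Depth moved with the score. The median was 1334 UMIs in the upper part and 10770 in the lower part of PFF 1, 1297 and 40500 in saline 2, and 8201 and 21590 in the common saline wells. With only barcodes of at least 5000 UMIs and the parts set anew, an alternative added after the data were seen, Sis gave -4.40 ± 0.38, Anpep -4.53 ± 0.37, Enpep -3.01 ± 0.28, Akp3 4.01 ± 0.63, Treh 1.64 ± 0.34, Alpi 1.49 ± 0.30 and Dpp4 -0.61 ± 0.23. Of 9493 genes tested there, 28.2% were higher and 31.6% lower. All 7 were still called, Mgam was not (-0.73 ± 0.31, edgeR adjusted p = 0.0554), and Lct gave 0.52 ± 0.40 (adjusted p = 0.277). The top 5% of barcodes by UMIs, set over all kept barcodes of each well, held much of the enterocyte RNA. Without them the lower part held 252353 UMIs in PFF 1 (3339853 before), 661849 in saline 2 (4835844) and 3407557 in the common saline wells (6310405). The calls of Treh (0.18), Alpi (0.80), Akp3 (0.48) and Dpp4 (-0.9999) were then lost. Without saline 2 those of Mgam (-1.065), Dpp4 (-0.436) and Alpi (1.39) were lost, and without the common saline wells that of Mgam (-0.64).

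Among these deeper barcodes Lct was highest in the middle part in all 4 libraries, a pattern that a contrast of the ends does not read. From the lower to the upper part, PFF 1 had 109.5, 296 and 228 CPM, saline 1 had 889, 1689 and 1173, saline 2 had 217, 821 and 371, and the common saline wells had 583, 961 and 221. Mgam was likewise highest in the middle part of each library, with 922, 1257 and 657 CPM in PFF 1 and 1891, 2945 and 488 in the common saline wells. Dpp4 had 177, 283 and 101 CPM in PFF 1 and 342, 559 and 144 in the common saline wells, and its middle value was also the highest in saline 1 and saline 2. Akp3 went on to its highest value in the upper part of PFF 1 (24.5, 128 and 1146 CPM) and saline 2 (25.5, 219 and 472 CPM), and was highest in the middle part of saline 1 (907 CPM) and of the common saline wells (772 CPM). With all barcodes these orders were not the same. Lct was then highest in the middle part of saline 1 and the common saline wells, in the upper part of PFF 1 and in the lower part of saline 2. Mgam and Dpp4 were highest in the lower part of PFF 1 (1102, 843 and 694 CPM for Mgam; 225, 139 and 177 for Dpp4) and of saline 2 (1792, 867 and 497; 342, 173 and 63.8), and in the middle part of the other 2. Akp3 was highest in the middle part of all 4 libraries. That middle value was 1290.4 CPM in PFF 1 (762 in the upper part), 851 in saline 1 (403), 631 in saline 2 (617) and 809.5 in the common saline wells (399). These orders were read after the values were seen and were not tested.

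**Figure D3:**
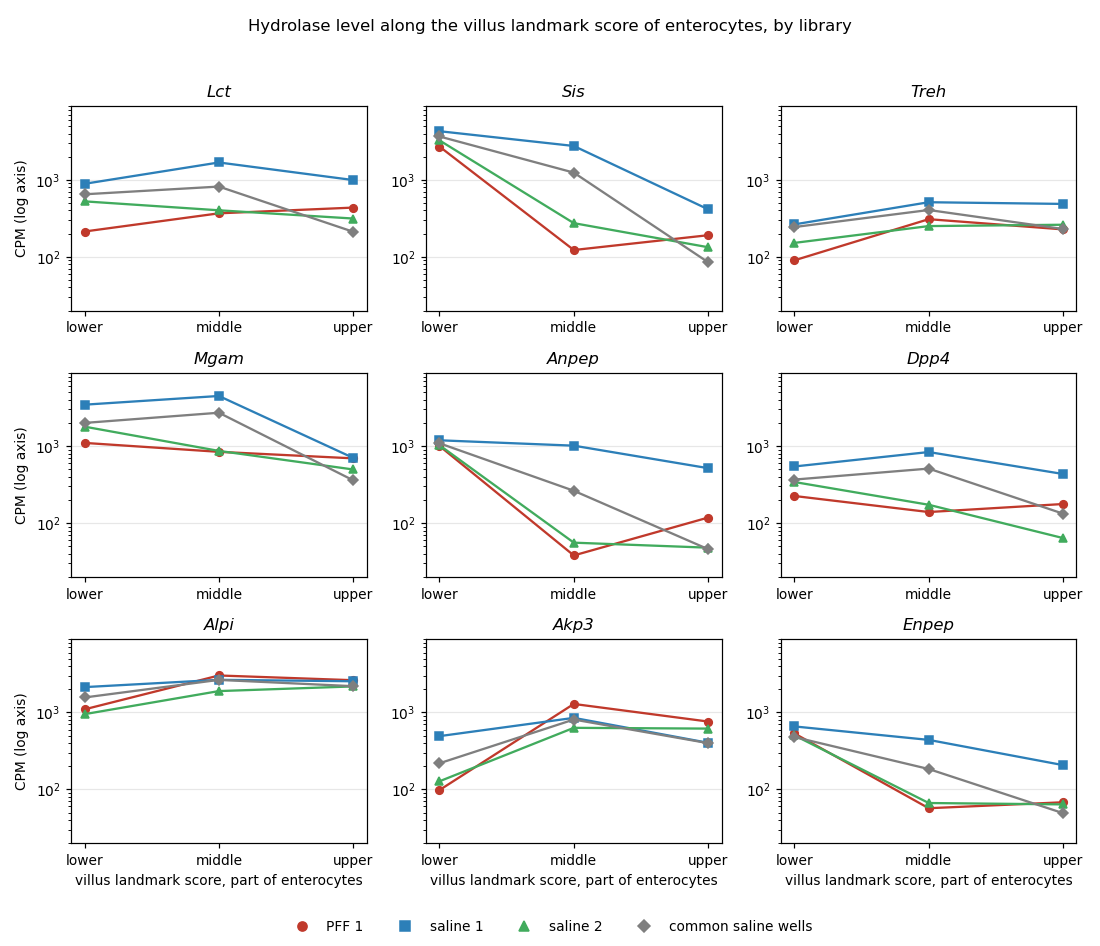
CPM of each hydrolase (logarithmic axis) in the lower, middle and upper part of the enterocytes by villus landmark score, with 1 line per library. Sis, Anpep and Enpep ended lower in the upper part than in the lower part in each library, while Akp3 stood higher in the upper part in PFF 1, saline 2 and the common saline wells and lower in saline 1, whose parts hold 12 cells each.

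Other genes of absorption were read against the 24.2% of all genes that were higher and the 27.2% that were lower in the upper part. Of 8 sugar transport genes 5 were lower in the upper part and 0 higher (median log2 -2.18, against -0.19 over all genes), among them Slc5a4a (-6.22), Slc5a4b (-3.09), Slc2a7 (-3.03) and Khk, which encodes ketohexokinase (-2.20). Of 14 genes of microvillus structure 10 were higher and 0 lower (median 1.20), including Cdhr2 (2.83), a cadherin of microvillus tips, Eps8 (2.70), Espn (2.11) and Ezr (2.08), which encodes ezrin. Of 10 peptide and amino acid transporters 3 were higher and 6 lower: Slc15a1, the peptide transporter PEPT1, gave 2.17, and Slc1a1, Slc7a8 and Slc6a20a gave -4.80, -3.12 and -2.21. Of 13 tested other brush border enzymes 6 were higher and 2 lower, with Enpp3 at 5.93, Enpp7 at 3.13, Tmprss15 at 2.98 and Xpnpep2 at -2.41. Of 14 regulators 4 were higher and 5 lower, with Prdm1, which encodes BLIMP1, at 6.21, Hnf4a at 2.33 and Cdx1 at -3.13. The regulators, in both directions, and the higher peptide and amino acid transporters lay near the shares over all genes. All of these named values passed edgeR's adjusted threshold. RLE scaling in place of TMM moved the median of all genes by -0.18.

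Sis and Akp3 differed in opposite directions between the upper and lower parts, and their presence in the same cell was counted. Thinned to 5000 UMIs, 13.6% of the 88 enterocytes of PFF 1 held both, where the product of the separate shares was 25.9%. The corresponding values were 40.0% and 44.4% in saline 1, 19.0% and 20.5% in saline 2, and 34.9% and 36.1% in the common saline wells. These are descriptions with no test.

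Many epithelial barcodes lay above 15% mitochondrial UMIs, the region a usual filter removes. Of barcodes above that limit, 37.2% were epithelial in PFF 1 (245 of 658), 53.7% in saline 1 (29 of 54), 51.0% in saline 2 (450 of 883) and 87.1% in the common saline wells (1878 of 2156). Relative to UMIs outside the mitochondrial genes, Lct, Treh, Mgam, Dpp4 and Akp3 were higher in these epithelial barcodes than in those at or below the limit. Lct stood above the limit at 756 CPM in PFF 1, 1470.3 in saline 1, 1221 in saline 2 and 835 in the common saline wells, against 126, 1104, 259 and 538 CPM at or below it (log2 1.68 ± 0.42; SE, 4 libraries; edgeR adjusted p = 0.00654). Mgam gave 1.44 ± 0.40 (adjusted p = 0.0109), Treh 1.39 ± 0.37 (0.00942), Akp3 1.31 ± 0.44 (0.0287) and Dpp4 1.27 ± 0.27 (0.00251). Of 13294 genes tested, 19.2% were higher and 23.7% lower.

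Alpi (0.86 ± 0.39, edgeR adjusted p = 0.0931), Enpep (0.52 ± 0.24, 0.0959), Anpep (0.32 ± 0.28, 0.379) and Sis (0.25 ± 0.36, 0.607) did not pass. The epithelial classes are not mixed alike on the 2 sides, so the contrast was repeated in enterocytes alone, an alternative added after the data were seen. Lct (1.00 ± 0.26, adjusted p = 0.00764), Treh (0.75 ± 0.23, 0.0204), Mgam (0.71 ± 0.25, 0.0388) and Dpp4 (0.68 ± 0.17, 0.00591) were still called, where 13.3% of 10828 genes were higher. Akp3 (0.67 ± 0.30, 0.0994) was not, and Sis (-0.34 ± 0.22) and Anpep (-0.36 ± 0.18) turned negative without a call. In saline 1, Treh had 380 CPM above the limit and 421 at or below it, and Mgam had 3409 and 3409.6 CPM, so neither was higher above it there.

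The calls of this contrast rested on some libraries. Without PFF 1, Treh (0.88), Mgam (1.04) and Akp3 (0.69) were not called and Lct and Dpp4 were; without saline 2, Mgam (1.101) and Akp3 (0.85) were not called; without the common saline wells, Akp3 (1.43) was not. Without saline 1 all 5 were called, and Alpi (1.25) as well. With the top 5% of barcodes by UMIs left out, saline 1 also had too few cells to be fitted, and none of the 5 was called: Lct gave 1.03, Mgam 1.24, Treh 0.57, Dpp4 1.17 and Akp3 0.40. The values without saline 1 alone were 2.09, 1.81, 1.78, 1.51 and 1.87. DESeq2 called all but Akp3 (1.11). The lists were read against the 19.2% of all genes that were higher and the 23.7% that were lower. Of them, 12 of 14 tested other brush border enzymes were higher and 0 lower (Tmprss15 2.15, Enpp3 1.84, Enpp7 1.73, Ggt1 1.62), as were 7 of 8 sugar transport genes (Slc2a7 2.22, Slc5a9 1.56, Slc5a4a 1.41, and Slc5a1, the glucose transporter SGLT1, 1.35). Microvillus genes were higher for 10 of 14, with Pdzk1 at 1.49 and Slc9a3 at 1.40. Of the peptide and amino acid transporters 7 of 10 were higher (Slc15a1 1.80, Slc6a19 1.69) and Slc1a1 was lower (-1.52). Of the regulators 2 were higher (Pdx1 0.71, Gata4 0.48) and 2 lower (Cdx1 -1.47, Cdx2 -0.60), both counts out of 14 and below the shares over all genes. These list counts are of all epithelial classes together, and they were smaller in enterocytes alone, where 13.3% of 10828 genes were higher. There 8 of 13 tested other enzymes were higher (median log2 0.68, against 1.33 in all classes), and 5 of 8 sugar transport genes. Peptide and amino acid transporters were higher for 4 of 10 and lower for 1, and microvillus genes higher for 6 of 14. Of the 14 regulators 0 were higher and 2 lower. RLE scaling moved the median of all genes by -0.16.

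**Figure D4:**
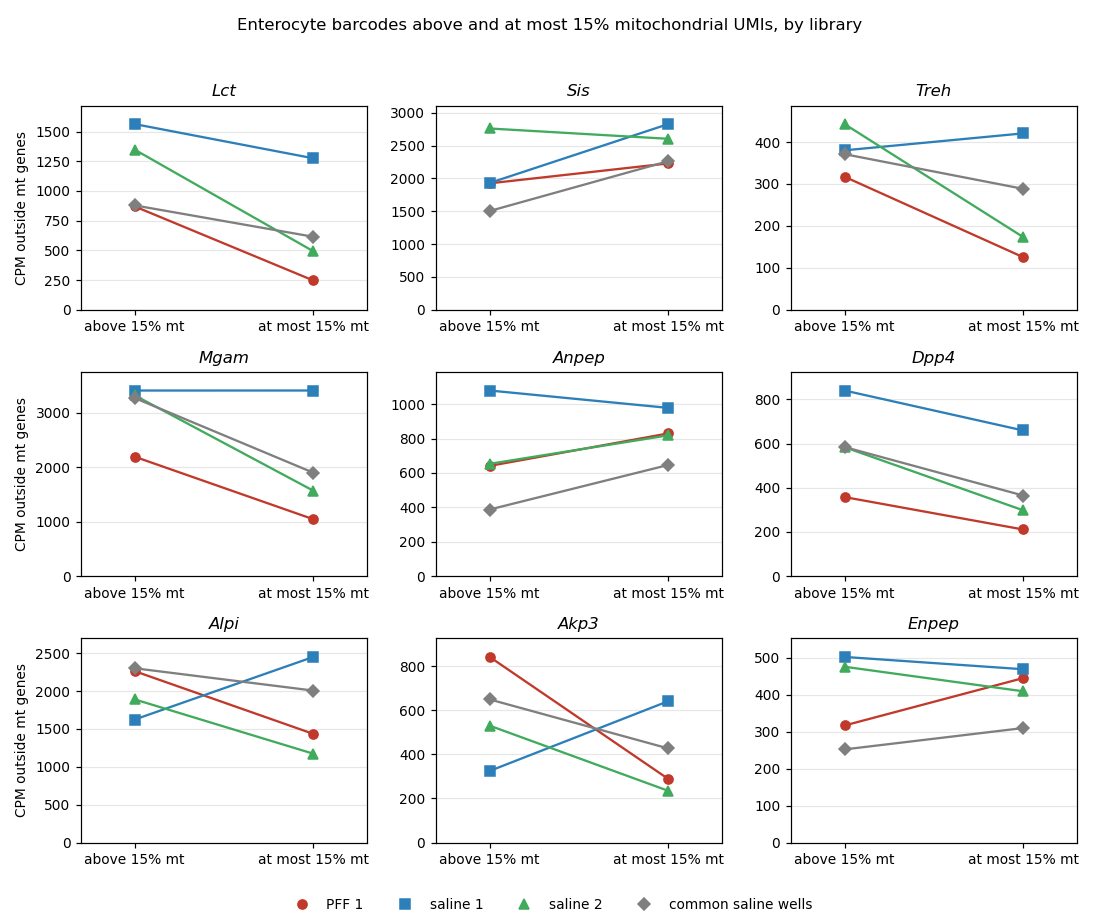
CPM outside mitochondrial genes of each hydrolase in enterocyte barcodes above 15% mitochondrial UMIs (left) and at most 15% (right), with 1 line per library. Lct was higher above the limit in all 4 libraries, and Sis was lower above it in all but saline 2.

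The comparison of PFF with saline is the contrast of the labels. In enterocytes none of the 9 hydrolases passed the test. Lct stood at 246 CPM in PFF 1 (interval 231 to 263), against 1275 in saline 1 (1179 to 1377), 492 in saline 2 (474 to 511) and 614 in the common saline wells (599.9 to 629). PFF 1 was the lowest, yet the saline libraries differed from each other by more than PFF 1 differed from saline 2. The log2 difference was -1.80 ± 0.78 (SE, 3 libraries; edgeR adjusted p = 1.00). The fit has 1 residual degree of freedom: with a single PFF library, only saline 1 and saline 2 give a spread, and that of PFF 1 is taken to be the same.

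Treh stood at 125 CPM in PFF 1, against 421 in saline 1, 173 in saline 2 and 288 in the common saline wells (log2 -1.19 ± 0.57). Mgam stood at 1045 CPM in PFF 1, against 3409.6, 1569 and 1899.8 (-1.21 ± 0.96), and Dpp4 at 211 CPM, against 659, 298 and 365 (-1.13 ± 0.65). These 3, like Lct, were lowest in PFF 1. Sis in PFF 1 (interval 2182 to 2278 CPM) was also the lowest but overlapped the common saline wells (2236 to 2292 CPM). Anpep, Alpi, Akp3 and Enpep lay within the saline range. The log2 differences were -0.27 ± 0.96 for Sis, -0.10 ± 0.74 for Anpep, -0.30 ± 0.88 for Alpi, -0.55 ± 0.65 for Akp3 and 0.04 ± 0.62 for Enpep. All had an edgeR adjusted p of 1.00. Lct and Treh had unadjusted p of 0.0287 and 0.0461, and DESeq2 called 0 members as well, with 1 at an unadjusted p under 0.05. Over all 10985 genes 0.0364% were called: Cubn, Slc5a12, Mt2 and Enpp7, all lower in PFF 1, with 289 genes at an unadjusted p under 0.05.

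Within batch 1, PFF 1 against saline 1, the values were -2.28 for Lct, -1.65 for Treh, -1.62 for Mgam, -1.55 for Dpp4, -1.06 for Akp3, -0.68 for Alpi, -0.26 for Sis, -0.15 for Anpep and 0.01 for Enpep. Against saline 2, of batch 2, they were -1.06, -0.53, -0.65, -0.56, 0.24, 0.23, -0.29, -0.04 and 0.06 in the same order of genes. Saline 1 held only 38 enterocytes. The enterocyte panel as a whole was also lower in PFF 1, at 45204 CPM, than in saline 1 (65063), saline 2 (53743) and the common saline wells (75035), and its part in the result was not tested. The 10 immune gate genes together had 137 CPM in PFF 1, 149 in saline 1, 131 in saline 2 and 70.9 in the common saline wells.

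**Figure D5:**
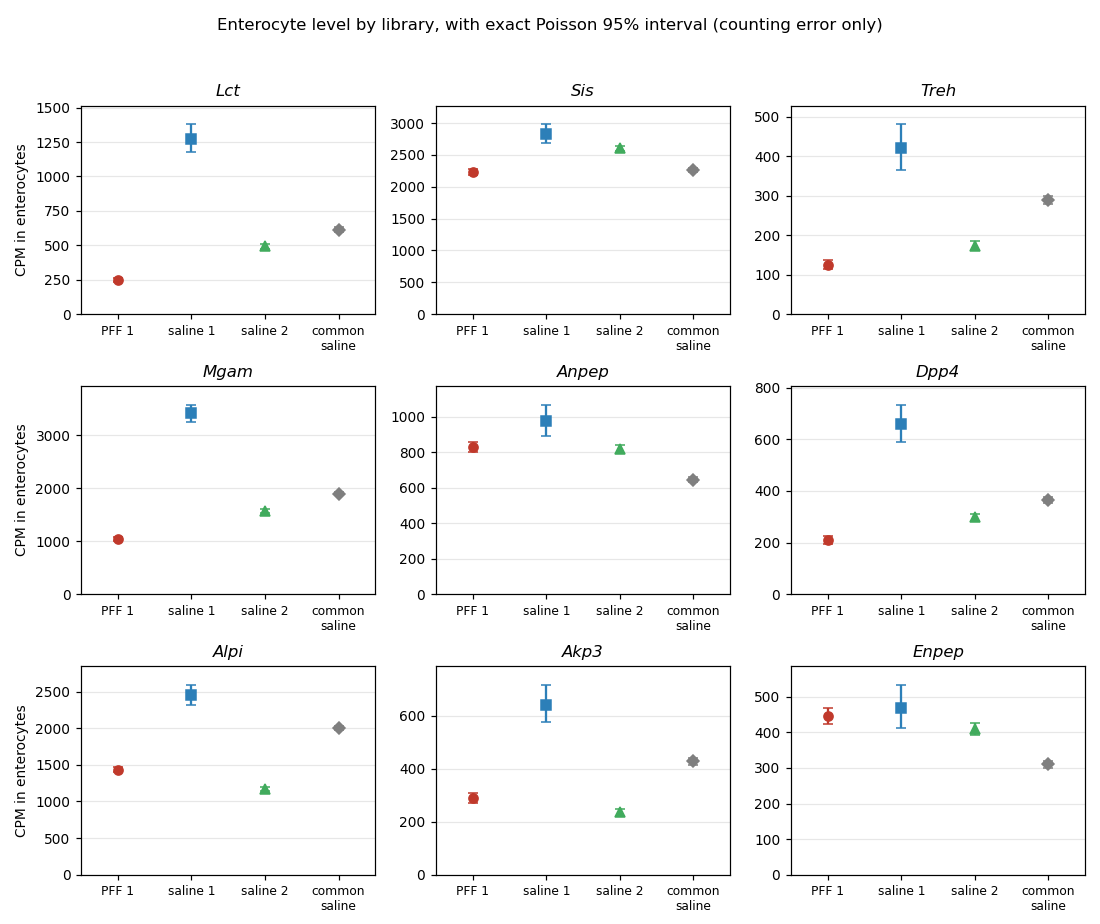
CPM of each hydrolase in enterocytes at or below 15% mitochondrial UMIs in PFF 1, saline 1, saline 2 and the common saline wells, with exact Poisson 95% intervals (counting error only). Lct, Treh, Mgam and Dpp4 were lowest in PFF 1, and the saline libraries differed among themselves by more than the intervals.

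The direction in enterocytes depended on which barcodes were kept. Without the top 5% of barcodes by UMIs in each well, which left 280 enterocytes in PFF 1, 10 in saline 1 and 306 in saline 2, Lct gave 0.51, Treh 0.61, Mgam 0.96, Dpp4 0.33, Alpi 0.66 and Akp3 1.65, and none was called. With at least 5000 UMIs, Lct gave -2.15 ± 0.84 and Treh -1.53 ± 0.65 (edgeR adjusted p = 0.999 each). In the lower part of the villus score Lct gave -1.68 ± 0.57 and Akp3 -1.48 ± 0.46 (adjusted p = 0.563 and 0.301), and in the upper part -0.15 ± 0.59 and 0.72 ± 0.59 (adjusted p = 0.997 each). Of the lists only Enpp7 passed, a sphingomyelin-cleaving enzyme of the brush border, at -3.98 ± 0.68 (adjusted p = 0.0109), 1 of 14 tested other enzymes. The medians were -1.14 for those enzymes, -1.36 for sugar transport genes, -0.44 for peptide and amino acid transporters, -0.65 for microvillus genes and 0.06 for regulators, against 0.02 over all genes.

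In epithelial barcodes above 15% mitochondrial UMIs 0 of the 9 were called, where 0.124% of 8864 genes were, with 300 genes and 1 member at an unadjusted p under 0.05 and 0 members called by DESeq2. Akp3 was the member with that p, at 655 CPM in PFF 1, against 341 in saline 1, 485 in saline 2 and 592 in the common saline wells (log2 0.97 ± 0.34, edgeR adjusted p = 0.733). PFF 1 had the highest value there, whereas in enterocytes at or below the limit its Akp3 value lay between saline 2 and the common saline wells. Lct stood at 756 CPM in PFF 1, against 1470.3, 1221 and 835 (-0.47 ± 0.34), again the lowest. None of the 5 lists had a called gene.

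In T cells Dpp4 stood at 58.1 CPM in PFF 1, against 61.4 in saline 1, 50.9 in saline 2 and 72.8 in the common saline wells, so PFF 1 lay within the saline range. The log2 difference was 0.06 ± 0.16 (edgeR adjusted p = 1.00). No member was called by edgeR or by DESeq2 and none had an unadjusted p under 0.05 in either, where 0.0124% of 16115 genes were called and 478 had such a p in edgeR. In cDC2, which were not tested for PFF, Dpp4 in PFF 1 (559 CPM, interval 525 to 595) was the highest, and its interval overlapped those of saline 2 (491 CPM, 457 to 526), saline 1 and the common saline wells.

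The genes whose levels were most like the summed hydrolases were Fmo5, a flavin-containing monooxygenase (Pearson r = 0.946), Creb3l3 (0.928), Slc5a11 (0.927), Gstk1 (0.916), Slc6a20a (0.916), Mylk (0.914), Cyp2c65 (0.913) and Ldb3 (0.912). They are the 8 highest of 4933 genes, over 32 points of 11 classes by library on a log2(CPM + 1) scale. Only genes above a set minimum CPM in enterocytes of every library were ranked, so the list was limited to genes of that class. The points share libraries and contrast epithelial with immune classes, and Creb3l3 is also 1 of the upper villus landmarks.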

How the data were processed

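Raw UMI counts per gene and barcode, as whole numbers, were deposited for 2 saline libraries and 1 PFF library. Cell Ranger 7.0.0 is named per the file headers and the mm10 build per the submitters' processing notes. Cell calling, strand setting and annotation release: not given in the sources used here. Wells with identical barcodes and counts in both saline files were counted once.

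Barcodes with at least 500 UMIs and 200 genes were kept. Epithelial barcodes had at least 3 markers, 5 UMIs and 80% of panel UMIs on the epithelial side, and immune barcodes at most 20%; subsets followed marker panels. Names rest on these gates alone. Some panel and list genes are counted in their lists but not reported here by name. No doublet caller was run. Leaving out the top 5% of barcodes by UMIs, over all kept barcodes of a well, was the alternative, and it removed deep enterocytes as well. UMIs were summed per class and library and fitted with edgeR 4.0.16 in R 4.3.3 (TMM, filterByExpr, quasi-likelihood F test, 2-sided, Benjamini-Hochberg over all genes, threshold 0.05). Library was a block for contrasts within libraries. Mitochondrial genes were left out of the contrast of mitochondrial share. They were also left out of PFF against saline in epithelial barcodes of high mitochondrial share. Values of 1 library against 1 used a prior count of 2 and have no test. DESeq2 1.42.0, RLE scaling, no low-count filter and other barcode limits were alternatives. Scripts were tested on simulated data. The p-values rest on the spread between these libraries, with the variance of each gene moderated by that of all genes tested. In the villus fit of all barcodes this moderation was in effect complete. A gene's own spread between libraries had next to no weight in its p-value there. The p-values cover no spread beyond these libraries. Each SE is the absolute log2 difference divided by the square root of its F value.

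Of 12 contrasts fitted, 5 were planned and 7 were added after levels had been seen: goblet, enteroendocrine, progenitor and tuft cells against enterocytes, the T cell subset contrasts and cDC2 against T cells. The members and lists were chosen with earlier results of these data known. The villus score was to be split into parts of equal size, but many shallow enterocytes tied at the highest score, and the planned split left no upper part in PFF 1 and saline 2. Tied cells were therefore kept in the upper part, a change made after the data were seen. Saline 1 had under 20 enterocytes per part and was left out of that fit by the planned rule.

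All 9 members are named in each comparison of the labels' groups, of villus parts and of mitochondrial share. Lists (15 other brush border enzymes, 8 sugar transport genes, 10 peptide and amino acid transporters, 14 microvillus genes and 14 regulators, as found in the files) are given as counts, with up to 4 called genes of largest change; in the class contrasts fewer were named. Khk, a kinase gene, is counted with the sugar transport genes throughout. Promoters are from RefSeq (GRCm38.p6), and gene spans from GENCODE M21.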

Additional observations from a re-analysis of the deposited data

How the results depend on the processing

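No paired test of PFF against saline was possible, because a batch term leaves no residual degrees of freedom with a single PFF library. Of 703 values of single genes under an alternative, 634 kept direction and call. The number of genes called for PFF against saline was small and moved with the setting. In enterocytes it was 4 and became 31 with no low-count filter, 1 with DESeq2, 0 with the common saline wells added, 0 at an epithelial share of 90%, 0 at 5000 UMIs or more, 0 with saline 2 and the common wells only, and 14 in the lower part. In epithelial barcodes above 15% mitochondrial UMIs it was 11, and 25 with RLE, 37 with no filter, 1 with DESeq2 and 3 with the common wells. In T cells it was 2, and 93 with no filter, 4 with DESeq2 and 0 with the common wells. For high against low mitochondrial share the count of 5702 became 3445 in enterocytes only, 823 without the top 5% of UMIs and 3468 above 30%; saline 1 had too few cells in the last 2, and without it alone the count was 5947, and for the villus parts 5187 became 2415 without the top 5%. For CD8ab against CD8aa T cells it was 761, and 1707 with no filter; for gamma-delta T cells it was 1325, and 663 with DESeq2. Leaving out 1 library gave 2930 to 5947 (mitochondrial share), 3330 to 5076 (villus parts), 3416 to 5271 (enteroendocrine), 136 to 1588 (CD8ab; 425 without the common wells) and 748 to 1144 (gamma-delta; 1108 without saline 1).

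Signs reversed for members that were not called. PFF against saline in enterocytes: Anpep 0.00695 with the common wells and 0.0845 with saline 2 and those wells only; Enpep -0.0156 at 10% mitochondrial UMIs and -0.0899 in the lower part; without the top 5%, Lct 0.51, Treh 0.61, Mgam 0.96, Dpp4 0.33, Alpi 0.66, Akp3 1.65 and Enpep -0.38; in the upper part, Mgam 0.50, Dpp4 0.13, Alpi 0.41, Akp3 0.72 and Enpep -0.47. With the common wells, Anpep (0.19) and Enpep (0.0397) reversed above 15% mitochondrial UMIs, and Dpp4 (-0.0853) in T cells. For mitochondrial share, Sis gave -0.0245 with no filter, -0.00789 with mitochondrial genes kept and -0.34 in enterocytes, where Anpep gave -0.36 and Enpep -0.15; leaving out 1 library gave Sis -0.14 to 0.47 and Anpep -0.0177 to 0.495 (0.322 without saline 1). For the villus parts, Lct gave -0.0456 with RLE, -0.11 with no filter, -0.0364 with DESeq2, -0.63 without the top 5% and -0.20 with 2 parts in place of 3, and -0.59 to 0.75 without 1 library. The cause was not tested. Saline 1, with 38 enterocytes, and the shallow enterocytes of PFF 1 and saline 2 limit the depth.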
